A study of Mus musculus with 20 samples.

Results

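The genes described here are 10 regulators of growth arrest and early stress, namely the 3 Gadd45 genes, Cdkn1a (p21), Mdm2, Ccng1, Myc, Ier3, Plk2 and Plk3. They were taken by gene symbol from the 37681 genes of the deposited tables, and each symbol matched 1 row. All 10 were among the 15578 genes tested.

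The study sequenced liver RNA of 10 wild-type male mice aged 12 weeks (strain label C57/BL6, given as C57/B6J from Jackson Labs in the growth protocol) on an Illumina and an Ion Torrent instrument, to compare what both platforms show of an inflammatory response. At 4 hours before the liver was taken, 5 mice (ILB_9577, ILB_9578, ILB_9579, ILB_9582 and ILB_9583) received 20 µg/kg of the inflammatory cytokine IL-1β by intraperitoneal injection and 5 mice (UNT_9574, UNT_9575, UNT_9576, UNT_9580 and UNT_9584) received saline, called untreated here. Each mouse gave 1 library per platform from the same RNA. The reads of each platform had been aligned in 3 ways, which makes 6 tables of 10 libraries with totals of 10568530 to 11046256 reads in the Illumina data aligned with STAR and 12199528 to 12723326 in the Ion Torrent data aligned with STAR. Values below are whole-number read counts from Illumina with STAR unless another table is named, in the order of the mice just given, and differences were fitted within a table with edgeR. Each table had been re-sampled separately, so levels were not compared across tables. The tissue is whole liver, in which fewer cells of a type and less RNA per cell cannot be told apart.

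Cells that meet stress or damage can halt division, and several of these genes take part in that halt. Cdkn1a encodes p21, an inhibitor of cyclin-dependent kinases and a well-known target of the transcription factor p53. The GADD45 proteins are small acidic stress proteins that bind PCNA, p21 and the kinase MAP3K4, through which they activate p38 and JNK. MDM2 is the ubiquitin ligase that limits p53, and it is itself induced by p53. In the liver, p21 and the early genes of this group are known for their induction after injury and at the start of regeneration.

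Of the 10 genes, 9 differed between IL-1β and untreated mice at an adjusted p below 0.05, 7 of them higher with IL-1β (Cdkn1a, Gadd45g, Gadd45b, Ier3, Plk3, Ccng1 and Mdm2) and 2 lower (Plk2 and Gadd45a). Myc did not pass. The response in this liver was broad: 45.7% of all tested genes passed the same test, 22.7% higher and 22.9% lower. The median log2 fold change was 1.08 over the 10 genes and 0.00 over all genes tested. With the rank-sum test that the study used, at q below 0.05, 7 of the 10 passed, against 38.1% of all genes. In 5 of the 10 the treated and untreated mice did not overlap after normalization, against 33.9% of all genes.

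**Figure D1:**
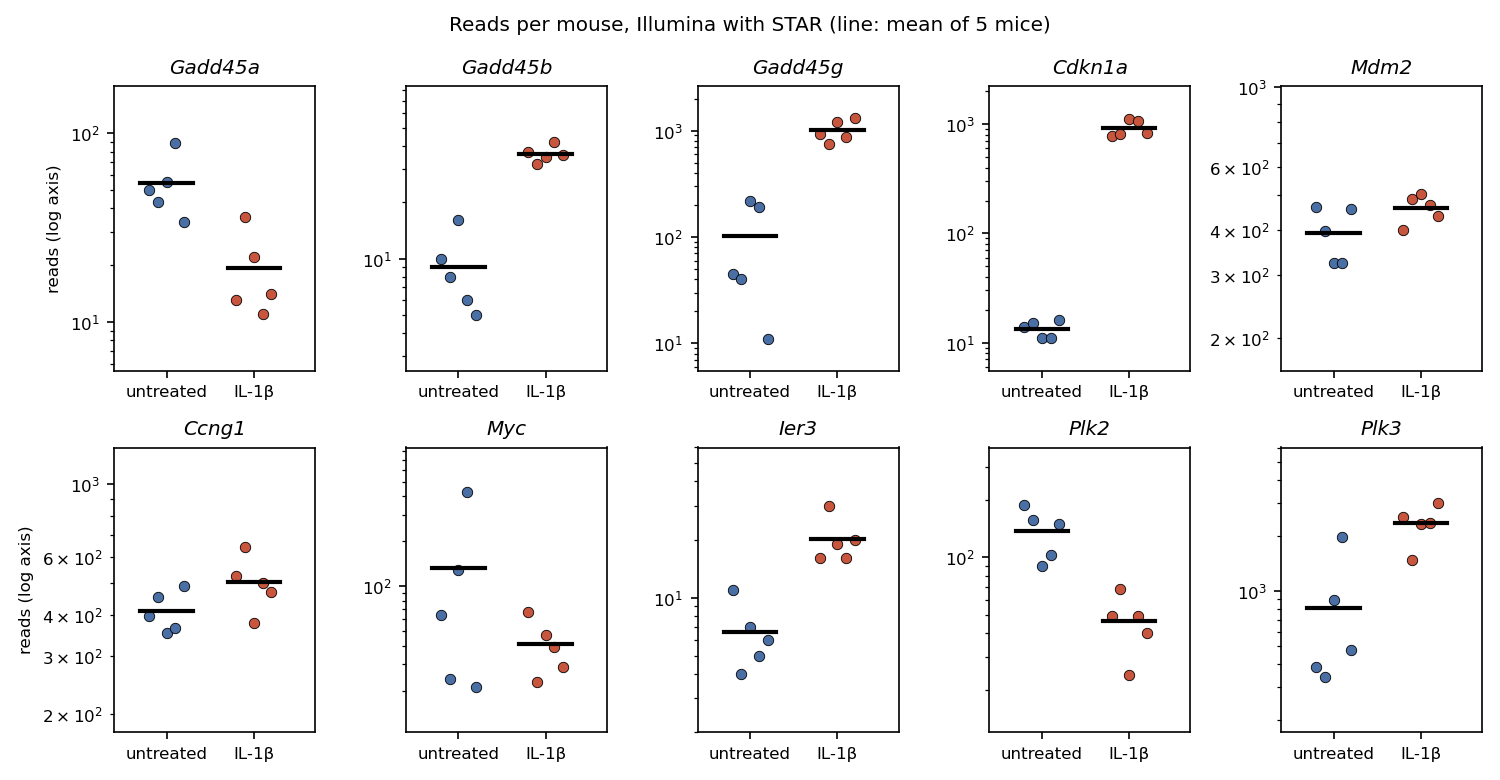
Reads of the 10 genes in the 10 Illumina libraries aligned with STAR, 1 point per mouse on a log axis with its own range in each panel, and a line at the mean of 5 mice. Cdkn1a lies at 11 to 16 reads in untreated and 780 to 1119 in treated mice, and the untreated mice spread widely for Gadd45g (11 to 217), Myc (21 to 425) and Plk3 (341 to 1960).

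Cdkn1a changed most. The treated mice had 780, 815, 1119, 1069 and 837 reads. The untreated mice had 14, 15, 11, 11 and 16 reads. The lowest treated mouse was far above the highest untreated one, and neither group varied much in these libraries. The untreated mice varied more in the Ion Torrent data aligned with STAR, with 10, 15, 30, 14 and 30 reads. The fitted log2 fold change was 6.27 (SE 0.18, adjusted p = 3.23e-12), a 77.3-fold rise, and it was 6.25 to 6.30 in the 6 tables. The gene lies at chr17:29227924-29237667 on the plus strand (NCBIM37, as are the other gene positions below), is protein coding like all 10 genes and has 3 annotated transcripts. RefSeq lists 2 starts for it.

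The 3 genes whose values over the 10 libraries were most like those of Cdkn1a, each taken as a log2 difference from its untreated mean, were Cxcl9, Serpina3i and Gbp6. The root-mean-square differences from Cdkn1a were 0.33 for Cxcl9, a chemokine that attracts T cells, 0.46 for Serpina3i, of the antichymotrypsin family, and 0.49 for Gbp6, a guanylate-binding protein. Their log2 fold changes were 5.95, 7.55 and 5.50, against 6.27 for Cdkn1a. The differences used log2 values with a prior count of 2, which draws in genes with few reads. For Serpina3i the fold changes thus lie farther apart than its root-mean-square difference. Serpina3i and Gbp6 belong to families of near-identical genes, so their counts are uncertain where reads were shared.

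Mdm2 and Ccng1, which encodes cyclin G1, are known p53 targets like Cdkn1a and moved far less. Mdm2 had 400, 487, 504, 469 and 438 reads in treated mice and 463, 397, 323, 323 and 456 in untreated mice. Ccng1 had 525, 644, 379, 500 and 471 reads in treated mice and 397, 454, 352, 365 and 491 in untreated mice. The groups overlapped for both genes in these libraries. They did not overlap for Mdm2 in the Ion Torrent tables, nor for Ccng1 in Ion Torrent with STAR + Bowtie2. Mdm2 lies at chr10:117125944-117147814 and Ccng1 at chr11:40562054-40568813, both on the minus strand. The log2 fold change was 0.40 for Mdm2 (SE 0.13, adjusted p = 0.0168), a 1.32-fold rise, and 0.46 for Ccng1 (SE 0.14, adjusted p = 0.0148), a 1.38-fold rise. Neither call held without TMM scaling (TMM corrects library sizes for differences in composition). The median log2 fold change of the genes with a mean of at least 20 reads was 0.01 with TMM and -0.12 without it. Without TMM, Mdm2 was at 0.28 (adjusted p = 0.0845) and Ccng1 at 0.34 (adjusted p = 0.0583). Neither gene passed the rank-sum test in the Illumina data with STAR. Of the 6 tables, Mdm2 passed it in 1 and Ccng1 in 0.

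The sequences before the starts of these 3 p53 targets and of Gadd45a are shown because each holds a match to the 10-base unit of a p53 response element, while the 4 genes rose strongly, rose little or fell. They are the 250 bases before the start given by RefSeq (build GRCm38.p6), written 5′ to 3′ on the strand of the gene, with the matches in capitals.
Cdkn1a, upstream start (chr17:29090729-29090978, plus strand): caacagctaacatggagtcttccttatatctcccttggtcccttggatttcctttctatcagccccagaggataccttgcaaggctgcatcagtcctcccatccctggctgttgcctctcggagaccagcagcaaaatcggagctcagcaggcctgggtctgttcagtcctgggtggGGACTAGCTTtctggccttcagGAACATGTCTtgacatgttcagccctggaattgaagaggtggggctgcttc
Mdm2 (chr10:117710759-117711008, minus strand): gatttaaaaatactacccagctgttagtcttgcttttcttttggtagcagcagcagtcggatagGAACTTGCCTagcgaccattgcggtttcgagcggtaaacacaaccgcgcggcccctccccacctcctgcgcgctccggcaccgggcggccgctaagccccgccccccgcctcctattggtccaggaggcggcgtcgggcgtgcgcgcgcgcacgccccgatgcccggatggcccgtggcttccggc
Ccng1 (chr11:40755287-40755536, minus strand): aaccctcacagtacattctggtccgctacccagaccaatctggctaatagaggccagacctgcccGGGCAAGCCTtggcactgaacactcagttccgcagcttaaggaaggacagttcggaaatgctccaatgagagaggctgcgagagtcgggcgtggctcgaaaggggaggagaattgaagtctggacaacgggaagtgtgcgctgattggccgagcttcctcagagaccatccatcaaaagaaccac
Gadd45a (chr6:67037408-67037657, minus strand): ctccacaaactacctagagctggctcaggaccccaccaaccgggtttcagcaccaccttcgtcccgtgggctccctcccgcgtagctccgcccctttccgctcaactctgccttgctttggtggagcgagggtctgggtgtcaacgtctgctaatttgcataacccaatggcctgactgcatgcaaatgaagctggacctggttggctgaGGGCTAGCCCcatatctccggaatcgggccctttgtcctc
Cdkn1a had 2 matches, beginning 73 and 51 bases before its upstream start, and none before its other start. The match began 186 bases before the start in Mdm2, 185 in Ccng1 and 40 in Gadd45a.

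RefSeq windows were found for 9 of the 10 genes, 10 windows in all with the pair of Cdkn1a, and not for Myc. Both strands were searched for 5 motifs, and no matches overlapped. The p53 unit was in 7.13% of the 32851 windows of the RefSeq table and in windows of 4 genes described here. The NF-κB consensus was in 7.25% of all windows and in that of Ier3. The TATA box TATAAA was in 12.4% of all windows and in those of Gadd45b and Gadd45g. The cAMP response element TGACGTCA was in 1.55% of all windows and in that of Plk2. The STAT motif TTCNNNGAA was in 7.02% of all windows and in 0 of these. A match is a stretch of letters and no measure of binding.

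The 3 Gadd45 genes, which encode closely related proteins, did not move alike. Gadd45g rose, with 935, 756, 1196, 875 and 1313 reads in treated mice and 45, 40, 217, 192 and 11 in untreated mice. Every treated mouse was above every untreated one, but the untreated mice differed from each other by up to 19.7-fold. Its log2 fold change was 3.51 (SE 0.51, adjusted p = 4.60e-05), an 11.4-fold rise. Gadd45g lies at chr13:51942047-51943837 on the plus strand.

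Gadd45b, known as a gene induced through NF-κB, had 37, 32, 35, 42 and 36 reads in treated mice and 10, 8, 16, 6 and 5 in untreated mice. The groups did not overlap, and the treated mice were close together. Its log2 fold change was 2.18 (SE 0.26, adjusted p = 7.07e-06), a 4.53-fold rise from few reads, so that counting error weighs on the untreated values. It lies at chr10:80392836-80394949 on the plus strand.

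Gadd45a, the member of the family known best as a p53 target, went the other way. Treated mice had 13, 36, 22, 11 and 14 reads, and untreated mice had 50, 43, 55, 89 and 34. The groups overlapped only by ILB_9578 and UNT_9584. The log2 fold change was -1.31 (SE 0.33, adjusted p = 0.00395), a 2.49-fold fall. In the Ion Torrent data aligned with STAR, where treated mice had 26, 82, 40, 13 and 13 reads and untreated mice 107, 50, 54, 146 and 63, it was -1.12 (adjusted p = 0.0450), and the call was lost when any of 6 mice was left out, with the smallest change, -0.78, without UNT_9580 (adjusted p = 0.156). Gadd45a lies at chr6:66985090-66987451 on the minus strand, and 859 of its bases overlap the antisense lincRNA gene E230016M11Rik. Both library kits keep the strand, but whether strand was used in counting is not given in the sources used here.

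The windows before Gadd45b and Gadd45g, the genes of the family that rose, are shown for the TATA box that both hold and Gadd45a does not.
Gadd45b (chr10:80929841-80930090, plus strand): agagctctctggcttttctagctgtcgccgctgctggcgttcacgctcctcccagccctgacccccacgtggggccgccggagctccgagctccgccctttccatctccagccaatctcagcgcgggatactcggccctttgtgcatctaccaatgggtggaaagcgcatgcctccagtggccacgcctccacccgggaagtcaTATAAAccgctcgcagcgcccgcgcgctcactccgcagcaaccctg
Gadd45g (chr13:51846425-51846674, plus strand): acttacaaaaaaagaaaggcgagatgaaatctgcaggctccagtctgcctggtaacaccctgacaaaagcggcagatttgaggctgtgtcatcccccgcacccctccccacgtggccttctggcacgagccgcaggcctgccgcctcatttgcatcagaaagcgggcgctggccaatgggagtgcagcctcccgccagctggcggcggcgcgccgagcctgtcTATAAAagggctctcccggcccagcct
The capitals begin 46 bases before the start in Gadd45b and 27 bases before it in Gadd45g.

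In CPM (reads scaled to a common library size) per kilobase of exon, the summed level of the family went from 10.8 ± 8.10 (SD, n = 5) in untreated to 89.3 ± 20.5 in treated mice. Gadd45g made up 57.7% ± 20.8 of the sum in untreated mice, with a range of 28.8% to 80.9%, and 95.4% ± 1.33 in treated mice. The share of Gadd45a was 34.3% ± 17.3 in untreated and 1.30% ± 0.94 in treated mice. In the untreated livers the family was thus a mixture that differed from mouse to mouse, and in the treated livers nearly all of it was Gadd45g.

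Ier3, an immediate early gene also called IEX-1 and known to be induced through NF-κB, lies at chr17:35958629-35959868 on the plus strand and had few reads in every mouse. Treated mice had 16, 30, 19, 16 and 20 reads, and untreated mice had 11, 4, 7, 5 and 6. The groups did not overlap. On the log2 scale Ier3 rose by 1.77 (SE 0.30, adjusted p = 0.000210), which is 3.42-fold, and the change was 1.55 to 1.92 in the 6 tables. Its window is shown for the NF-κB motif, in capitals, which begins 92 bases before the start.
Ier3 (chr17:35821463-35821712, plus strand): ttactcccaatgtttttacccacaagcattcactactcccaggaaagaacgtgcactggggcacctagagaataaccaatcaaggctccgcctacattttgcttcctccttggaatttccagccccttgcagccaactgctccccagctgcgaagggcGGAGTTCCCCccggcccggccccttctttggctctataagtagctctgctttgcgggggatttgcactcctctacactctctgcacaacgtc

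Myc, the transcription factor that drives growth and ribosome synthesis, depended most on 1 mouse. Treated mice had 67, 23, 47, 39 and 29 reads, and untreated mice had 64, 24, 128, 425 and 21. UNT_9576 and UNT_9580 lay above every treated mouse, with UNT_9580 the highest of all, and the other 3 untreated mice lay within or just below the treated range. With all mice the log2 fold change of -1.53 (SE 0.66) did not pass (adjusted p = 0.0730), and it was -0.34 (adjusted p = 0.594) without UNT_9580. It passed without UNT_9575 (-1.80, adjusted p = 0.0264) or UNT_9584 (-1.79, adjusted p = 0.0297). In place of edgeR, DESeq2 gave -1.54 (adjusted p = 0.101) and limma-voom -0.70 (SE 0.81, adjusted p = 0.529) with all mice. In the Ion Torrent data aligned with STAR, untreated mice had 95, 55, 185, 736 and 43 reads and treated mice 97, 64, 82, 67 and 42, and the log2 fold change of -1.54 passed (adjusted p = 0.0477) but was -0.23 (adjusted p = 0.638) without UNT_9580. Myc lies at chr15:61816946-61821929 on the plus strand.

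The polo-like kinases Plk2 and Plk3, serine/threonine kinases that respond to stress, moved in opposite directions. Plk3 had 2524, 1471, 2319, 2335 and 3011 reads in treated mice and 385, 341, 889, 1960 and 478 in untreated mice. UNT_9580 lay within the treated range, and the other 4 untreated mice lay below it. The log2 fold change was 1.69 (SE 0.40, adjusted p = 0.00285), a 3.23-fold rise, and 2.34 without UNT_9580. Plk3 lies at chr4:116801260-116806568 on the minus strand, where its last 84 bases overlap the antisense gene Tctex1d4.

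Plk2 had 49, 68, 24, 49 and 40 reads in treated mice and 189, 157, 90, 103 and 149 in untreated mice. All treated mice were below all untreated mice. This held in 4 of the 6 tables, and not in Ion Torrent with STAR or with STAR + Bowtie2. The log2 fold change in the Illumina data with STAR was -1.40 (SE 0.25, adjusted p = 0.000288), a 2.64-fold fall. The genes most like Plk2 over the 10 libraries were Ttc8, Eltd1 and Mtm1, with root-mean-square differences of 0.24, 0.28 and 0.28 and log2 fold changes of -1.34, -1.35 and -1.35. Ttc8 encodes a protein of the Bardet-Biedl complex at the cilium, Eltd1 an adhesion receptor of endothelial cells and Mtm1 the phosphatase myotubularin. The window of Plk2, at chr13:111185252-111191052 (NCBIM37), is shown for its cAMP response element, in capitals, which begins 62 bases before the start.
Plk2 (chr13:110394794-110395043, plus strand): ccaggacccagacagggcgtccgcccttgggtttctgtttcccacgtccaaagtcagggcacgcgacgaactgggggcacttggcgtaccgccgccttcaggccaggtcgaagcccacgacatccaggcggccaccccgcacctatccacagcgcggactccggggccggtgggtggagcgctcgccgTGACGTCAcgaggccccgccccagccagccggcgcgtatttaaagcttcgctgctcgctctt

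Levels can be set side by side between genes only per length. In untreated mice the order by mean CPM per kilobase of exon was Plk3 (28.1 ± 23.9, SD, n = 5), Ccng1 (10.2 ± 1.77), Gadd45g (7.48 ± 7.13), Mdm2 (6.75 ± 1.24), Myc (4.28 ± 5.55), Plk2 (4.27 ± 1.20), Gadd45a (2.68 ± 1.06), Gadd45b (0.614 ± 0.286), Cdkn1a (0.526 ± 0.100) and Ier3 (0.506 ± 0.192). The ranges of neighbours in this order overlapped at every step except that from Gadd45a down to Gadd45b. In treated mice the order was Plk3 (90.8 ± 22.2), Gadd45g (85.4 ± 20.6), Cdkn1a (41.0 ± 7.39), Ccng1 (14.1 ± 2.63), Mdm2 (8.94 ± 0.92), Gadd45b (2.83 ± 0.29), Ier3 (1.76 ± 0.51), Plk2 (1.61 ± 0.56), Myc (1.48 ± 0.59) and Gadd45a (1.07 ± 0.58). Here Plk3 and Gadd45g overlapped, each step from Gadd45g down to Gadd45b was clear of its neighbour, and from Gadd45b down each gene overlapped the next. Cdkn1a thus went from the ninth to the third place, and Gadd45a from the seventh to the last.

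**Figure D2:**
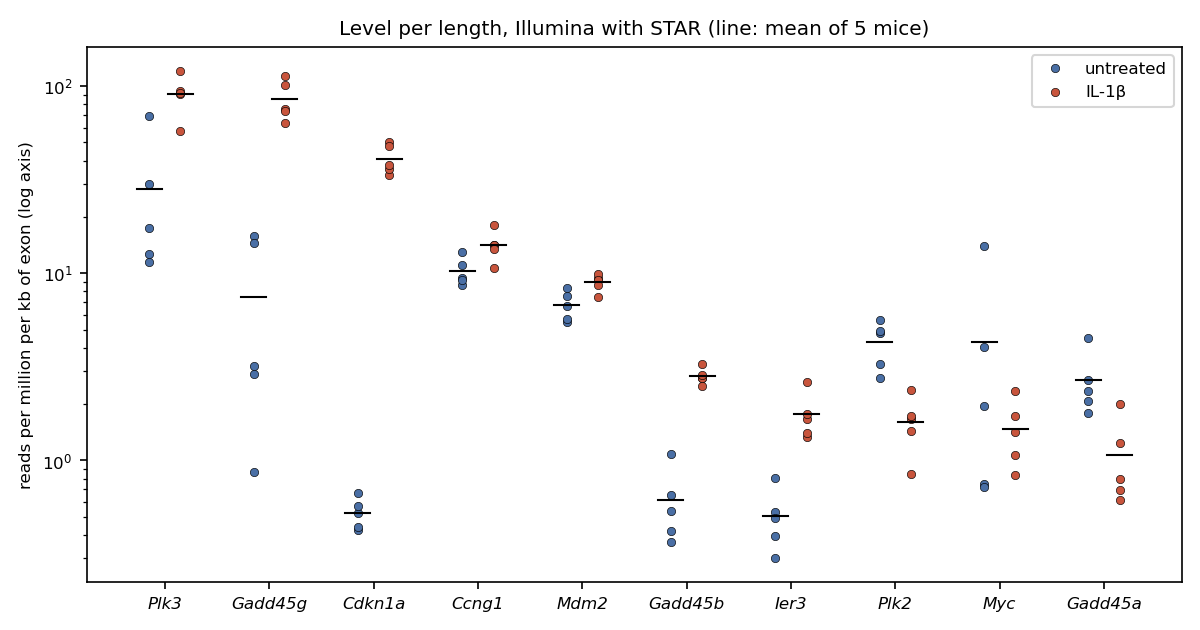
Level per length of the 10 genes in CPM per kilobase of exon on a log axis, 1 point per mouse and a line at the mean of 5 mice, ordered by the mean in treated mice. Plk3, Gadd45g and Cdkn1a lead in treated mice at 90.8, 85.4 and 41.0, while Cdkn1a is at 0.526 in untreated mice.

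The other 5 tables were used as a check. With Illumina, 9 of the 10 genes passed in each of the 3 tables. With Ion Torrent, all 10 passed in each of the 3. The number higher with IL-1β was 7 every time. The share of all tested genes that passed was 47.5% with Illumina and GSNAP, 47.4% with Illumina and STAR + Bowtie2, 46.4% with Ion Torrent and GSNAP, 42.1% with Ion Torrent and STAR, and 46.7% with Ion Torrent and STAR + Bowtie2. No gene changed direction between tables. Myc was the gene that passed with Ion Torrent (adjusted p of 0.0423 to 0.0491) and not with Illumina (0.0730 to 0.0956).

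Whether the response itself differed between platforms was tested as a platform-by-treatment term over the 20 STAR libraries, with the mouse as a block. It passed for 0 of the 10 genes and for 0.00642% of all genes, which is 1 gene. By edgeR, 0 of the 10 had an unadjusted p below 0.05 with STAR, and 1 had it with GSNAP (Plk2) and 1 with STAR + Bowtie2 (Plk3). The terms nearest to the threshold with STAR were those of Plk2, whose fall was smaller by 0.37 (SE 0.18, adjusted p = 0.702) on the log2 scale with Ion Torrent, and of Plk3, whose term was -0.19 (SE 0.09, adjusted p = 0.702). For Cdkn1a the term was 0.03 (SE 0.27).

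**Figure D3:**
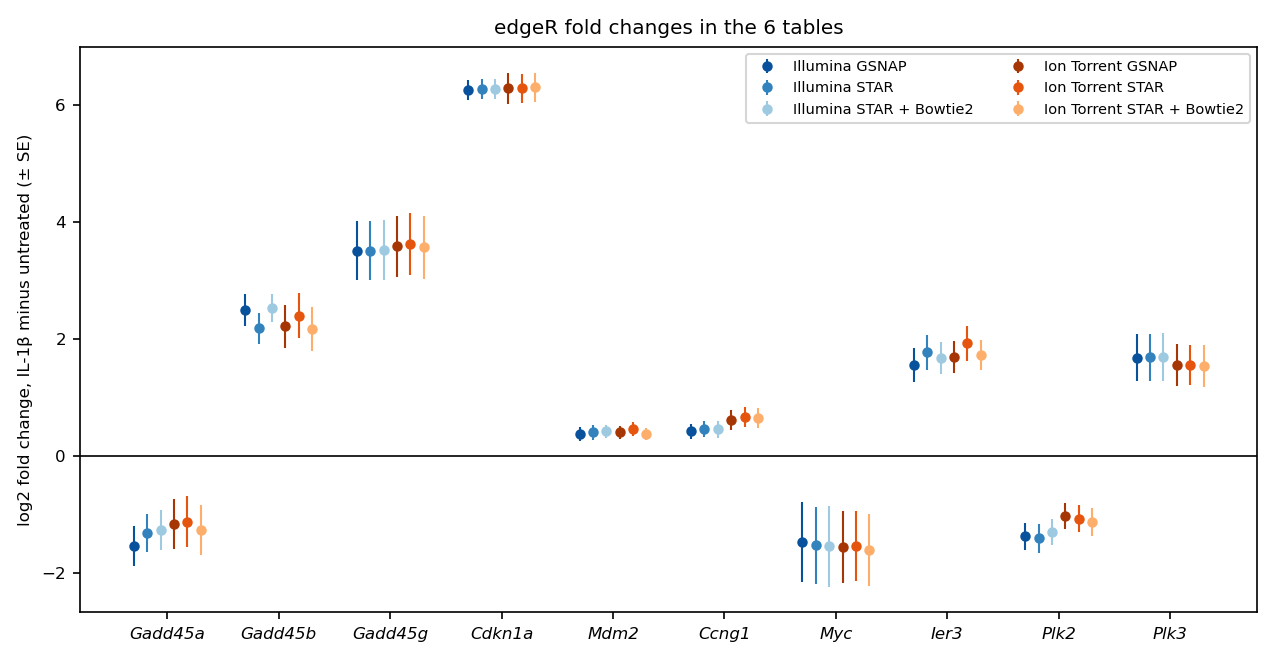
Log2 fold change of IL-1β minus untreated for the 10 genes in each of the 6 tables, with bars of 1 SE from edgeR. The tables lie close together for each gene, at 6.25 to 6.30 for Cdkn1a and -1.40 to -1.02 for Plk2, and the longest bars are those of Myc and Gadd45g.

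The untreated mice were far from uniform for some of these genes. On the log2 scale the SD among untreated mice was 1.74 for Myc, 1.68 for Gadd45g and 1.06 for Plk3, against a median of 0.22 over the 10841 genes with a mean of at least 20 reads. These values exceeded those of 99.9%, 99.9% and 99.5% of the genes. In treated mice the SD was 0.55, 0.34 and 0.39, against a median of 0.20. These values still exceeded those of 95.7%, 80.6% and 85.9% of the genes. The treated SD was 0.64 for Gadd45a and 0.52 for Plk2. Cdkn1a, Ccng1 and Mdm2 were at 0.23, 0.24 and 0.26 among untreated mice, near the median of all genes. In the Ion Torrent data with STAR they were at 0.66, 0.13 and 0.09.

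The same mice stood out on both platforms. UNT_9576 and UNT_9580 were the highest of the 5 untreated mice for Gadd45g, Myc and Plk3 in all 6 tables, and the lowest for Plk2 and Mdm2 in all 6 tables. For Mdm2 the margin was slight in Ion Torrent with STAR, at 26.27 CPM in UNT_9576 and 26.34 in UNT_9575. For Gadd45g the Ion Torrent counts with STAR were 489 and 537 in UNT_9576 and UNT_9580 and 91, 46 and 80 in UNT_9574, UNT_9575 and UNT_9584. For Plk3 they were 1512 and 2718 against 703, 511 and 1080. In Illumina with STAR these mice were the highest for 4 of the 10 genes and the lowest for 4, while they were the highest for 13.0% and the lowest for 15.3% of the 10841 genes. These counts include Gadd45a (highest), Cdkn1a and Ccng1 (lowest), for which the order held in no Ion Torrent table. UNT_9576 and UNT_9580 were chosen after these values were seen, and no test was made of them. With STAR, the libraries of UNT_9584 were the least alike of any mouse in their differences from the group mean (correlation of 0.249 over 10543 genes). The paper reports that its read counts still correlated strongly between platforms, though less than those of other samples. It also describes shifted Ion Torrent read lengths for this sample. With STAR, UNT_9584 was the lowest untreated mouse for Gadd45b with Illumina, at 5 reads, and the highest with Ion Torrent, at 45 reads. With Illumina and GSNAP it had 6 reads and UNT_9574 was the lowest, at 5 reads.

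**Figure D4:**
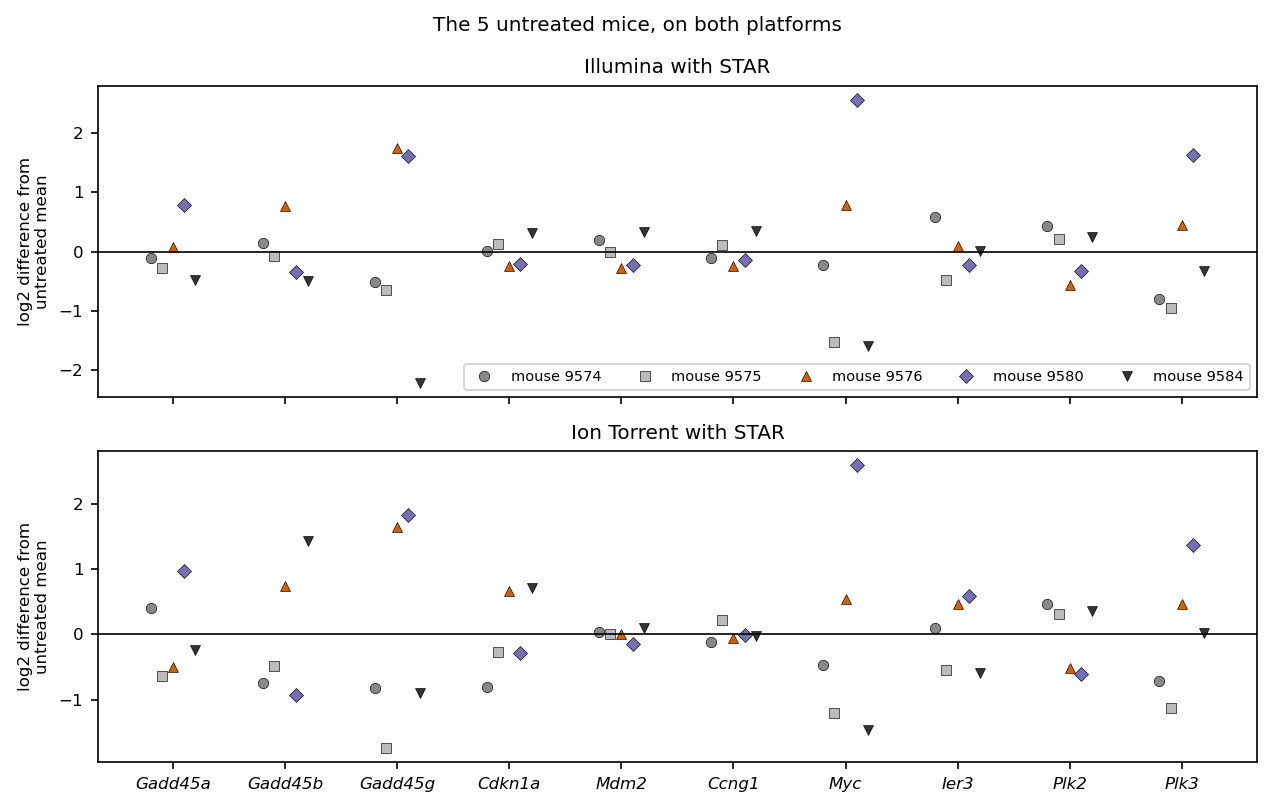
Log2 difference of each untreated mouse from the untreated mean for the 10 genes, with Illumina above and Ion Torrent below, both aligned with STAR. UNT_9576 and UNT_9580 are the highest points for Gadd45g, Myc and Plk3 and the lowest for Plk2 on both platforms, and UNT_9584 changes sides for Gadd45b.

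Other genes of the same pathways were counted in 5 lists that hold none of the 10 genes. Among 30 regulators and targets of p53, 13 were higher and 8 lower with IL-1β, with a median log2 fold change of 0.39 against 0.00 over all genes. The shares of all tested genes, 22.7% higher and 22.9% lower, are the background of this and the following counts, and nothing is read from the lists beyond the values of their genes. The number lower was 5 without ILB_9583. The named genes are the called ones with the largest change. Ddit4, an inhibitor of mTORC1 signaling, rose by 3.69 (SE 0.41) from a mean of 56.4 to 638 reads. Btg2, an antiproliferative factor, rose by 2.99 (SE 0.14), the checkpoint kinase gene Chek1 by 2.19 (SE 0.24) and the death receptor gene Fas by 1.86 (SE 0.20). Trp53 itself rose by 0.67 (adjusted p = 0.00276). Its targets went both ways. Bbc3, Perp, Ddb2 and Sesn1 fell by 1.15, 0.96, 1.36 and 0.95, while Aen, Trp53inp1, Bax and Zmat3 rose by 1.32, 0.89, 0.86 and 0.85. Trp53 and these targets were chosen after their values were seen, from the list with 13 higher and 8 lower.

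Of the 26 CDK inhibitors, cyclins and Rb/E2F genes 22 were tested, of which 4 were higher and 7 lower, with a median of -0.15. Ccne1, which encodes cyclin E1, rose by 1.33 (SE 0.17), and Rbl1, which encodes the Rb relative p107, by 1.21 (SE 0.26). The CDK inhibitor gene Cdkn2c fell by 1.21 (SE 0.21) and the transcription factor gene E2f1 by 1.18 (SE 0.21). Cdkn1b, the gene of the p21 relative p27, was at -0.04 (adjusted p = 0.824), and Cdkn1c, the gene of p57, fell by 1.98 (adjusted p = 0.00468) from a mean of 10.2 to 2.2 reads. Both were chosen after their values were seen, as the genes of the same CDK inhibitor family. Cdkn1a was the gene of this family that rose.

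The 16 partners, antagonists and targets of Myc gave 15 tested genes, of which 10 were higher and 4 lower, with a median of 0.46. Mycl1, which encodes the Myc relative L-Myc, fell by 3.77 (SE 0.36) from a mean of 120.8 to 7.8 reads. Cad, an enzyme of pyrimidine synthesis, rose by 1.73 (SE 0.20), the antagonist Mxd1 by 1.60 (SE 0.17) and Odc1, the rate-limiting enzyme of polyamine synthesis, by 1.08 (SE 0.14). Cad and Odc1 are known targets of Myc.

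Of the 13 MAP kinase genes linked to GADD45, 3 were higher and 3 lower, with a median of 0.03. Map2k6, which encodes a kinase that activates p38, fell by 3.63 (SE 0.26) from a mean of 100.0 to 7 reads, and the JNK gene Mapk9 fell by 0.54 (SE 0.11). The JNK-activating kinase genes Map2k4 and Map2k7 rose by 0.46 (SE 0.10) and 0.43 (SE 0.09). Among the 16 tested of 19 immediate early stress genes, 11 were higher and 0 lower by edgeR, with a median of 1.18. Ddit3, the gene of the stress factor CHOP, rose by 2.84 (SE 0.18), and the AP-1 genes Junb, Jun and Jund by 1.78 (SE 0.39), 1.50 (SE 0.17) and 1.45 (SE 0.20).

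**Figure D5:**
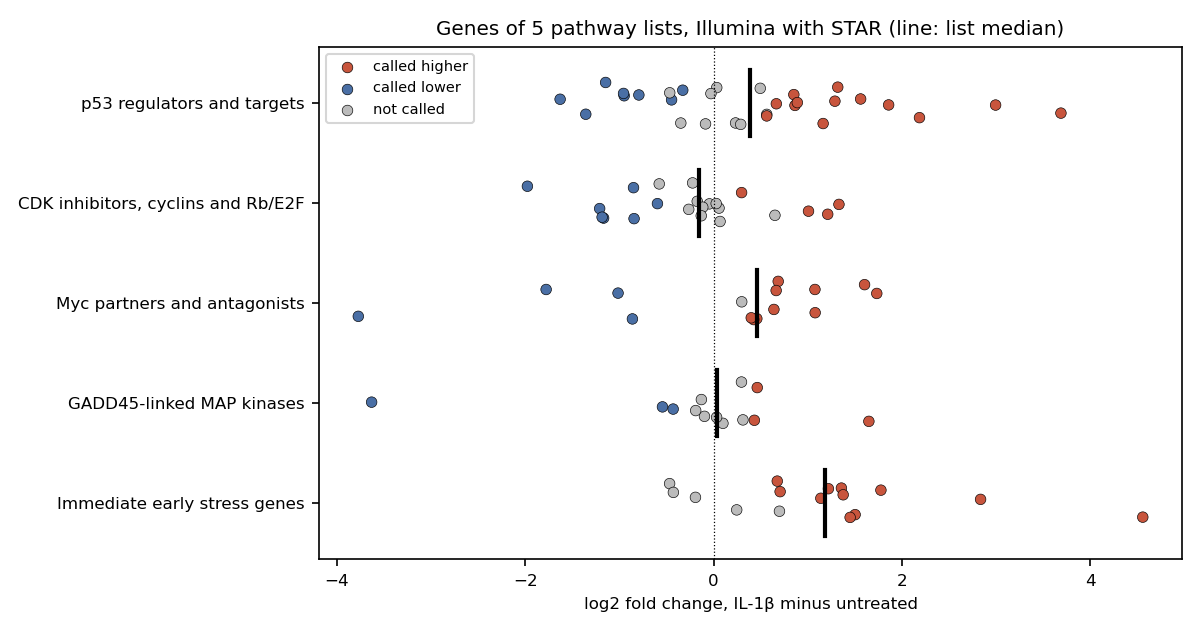
Log2 fold change of every tested gene in 5 pathway lists, colored by whether edgeR called it higher, lower or neither at an adjusted p below 0.05, with a line at each list's median. The immediate early stress genes have the highest median, 1.18. In every list genes lie on both sides, with Mycl1 at -3.77 and Map2k6 at -3.63 farthest to the left.

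Markers of liver cell types were counted in the same way, beside the 22.7% of all tested genes called higher and the 22.9% called lower. The 5 tested of 8 neutrophil markers (S100a8, S100a9, Csf3r, Cxcr2 and Retnlg) rose, and their summed level was 49.1 to 106 CPM in treated and 2.04 to 6.16 in untreated mice. Ly6g, Mpo and Elane had too few reads to be tested. Of 7 hepatocyte markers 1 rose and 3 fell, with sums of 70232 to 79240 in treated and 87910 to 108578 in untreated mice. Of 7 Kupffer cell and macrophage markers 1 rose and 3 fell, with sums of 72.5 to 169 and 130 to 226. Of 7 endothelial markers 2 rose and 3 fell (91.6 to 150 and 122 to 186), of 6 stellate cell markers 0 rose and 2 fell (161 to 244 and 229 to 287), of 5 cholangiocyte markers 2 rose and 0 fell (41.8 to 73.8 and 46.0 to 63.2), and of 4 tested lymphocyte markers 0 rose and 1 fell (0.805 to 1.79 and 1.07 to 3.0). Albumin and the other 6 hepatocyte markers were all detected. The part of these cells in the results above was not tested.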

How the data were processed

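Liver RNA of 10 mice was sequenced on 2 platforms. Reads were aligned by the authors using STAR 2.5.1b, STAR with Bowtie2 2.2.9 as a further step, or GSNAP (versions per the submitters' notes). PORT then took out rRNA and mitochondrial reads, assigned the rest to Ensembl models on NCBIM37 and re-sampled every library of a table to a common number of gene-mapping reads. The deposited values are whole-number counts per gene, and all 60 columns were used. Illumina counts may be read pairs, which the tables do not state.

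A gene entered the tests (15578 did) if, in any table, 5 of 10 libraries held 5 or more reads. Treatments were compared by quasi-likelihood F-tests in edgeR on TMM-scaled libraries, with Benjamini-Hochberg adjustment over all of these genes. The study's rank-sum test was run beside it, and the smallest exact p that 5 mice against 5 allow is 0.00794. The platform-by-treatment term was fitted with the mouse as a block, since both libraries of a mouse share its RNA. Their differences from the group mean correlated at 0.562 to 0.722 for 9 mice and 0.249 for UNT_9584. Alternatives were DESeq2, limma-voom, no TMM, other filters, a log2 fold change above 1, the other tables, no mouse block and leaving out each mouse. The mice are separate animals.

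The 10 genes and the lists were chosen with earlier results of these data known. Named are the 10 genes, up to 4 called genes per list with a mean of at least 20 reads and the largest change, and the 3 genes most alike to Cdkn1a and to Plk2, which had the largest rise and fall among the called genes with a mean of at least 20 reads in the Illumina STAR table. CPM values were TMM-scaled and log2 values used a prior count of 2. Positions and exon lengths are from GENCODE vM1 (NCBIM37) and promoter windows from RefSeq (GRCm38.p6). In simulated tables of 15578 genes, 200 were shifted by 1.5 on the log2 scale. For treatment in the Illumina STAR table edgeR found 200 of them, DESeq2 200, limma-voom 199 and the rank-sum test 0, and edgeR called 6 unchanged genes. The rank-sum result was fixed in advance, since a smallest p of 0.00794 cannot pass the adjustment when so few genes change. Every simulated gene had the same variability between mice, so recovery of genes as variable as Myc or Gadd45g was not measured. For the platform term edgeR found 199, with 15 unchanged genes. The software was edgeR 4.0.16, DESeq2 1.42.0 and limma 3.58.1 in R 4.3.3, and pandas 2.3.3, numpy 2.4.6 and matplotlib 3.10.9 in Python 3.11.15.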

Additional observations from a re-analysis of the deposited data

Results flagged for a closer look

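In 40 groups of 5 mice (10 genes, both treatments, both platforms with STAR), the highest or lowest mouse was compared with the range of its group. In 3 of them its gap to the nearest mouse, as a share of the range in CPM, was above Dixon's critical value of 0.71. For normally distributed values chance alone gives that in about 1 group of 20. The ratio was not taken on the log2 scale. There the untreated mice had 2.46, 1.16, 3.48, 5.25 and 1.09 for Myc in the Illumina data with STAR. Both cases for Myc come from the same RNA of 1 mouse. UNT_9580 was far above the other untreated mice for Myc on both platforms, with a ratio of 0.748 in the Illumina data (425 reads) and 0.806 in the Ion Torrent data (736 reads). UNT_9575 was above the others for Ccng1 in the Ion Torrent data, with a ratio of 0.731 and 306 reads.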

How the results depend on the processing

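No alternative reversed the direction of a treatment effect. Of 200 refits of the fold changes of the 10 genes, 192 kept the side of the threshold: Mdm2 and Ccng1 lost the call without TMM, and Myc gained it in 6 refits (the Ion Torrent tables, no filter on low counts, and without UNT_9575 or UNT_9584). The 44 recounts of genes called higher or lower stayed within 1.5 times. Leaving out 1 mouse gave 7 higher in each refit and 2 to 3 lower. In the lists, the MAP kinase genes called higher numbered 1 with Ion Torrent and GSNAP, the immediate early genes called lower numbered 1 in each of the 3 Ion Torrent tables, and the CDK inhibitors, cyclins and Rb/E2F genes called lower numbered 4 with Ion Torrent and STAR or STAR + Bowtie2. The p53 genes called lower numbered 5 (without ILB_9583) to 9 (without UNT_9576). The cause was not tested. In 10 refits of Ion Torrent with STAR that left out 1 mouse each, added after the data were examined, Gadd45a kept its call in 4 and Myc in 3, and the other 8 genes in all 10. Without the replicate block, 0 of the 10 genes had a platform-by-treatment term called, as with it. Depth limits the untreated values of Ier3, Gadd45b and Cdkn1a most, at 4 to 16 reads per library.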

Other observations

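Among the 10841 genes with a mean of at least 20 reads, 6 spread more among the untreated mice than Myc in the Illumina data aligned with STAR: Lars2, Ces2b, Onecut1, Cish, Egr1 and Slc15a2. They were looked up after the spread of Myc was seen. Onecut1, which encodes the liver transcription factor HNF6, had 23, 29, 295, 285 and 11 reads in UNT_9574, UNT_9575, UNT_9576, UNT_9580 and UNT_9584, so that UNT_9576 and UNT_9580 stood apart as they did for Gadd45g. The Ion Torrent counts of Onecut1 were 51, 51, 563, 566 and 88. Cish, a feedback inhibitor of cytokine and growth hormone receptors, had 52, 59, 409, 1233 and 107 reads, and 82, 60, 557, 1435 and 127 with Ion Torrent. UNT_9576 and UNT_9580 were again the highest on both platforms. Egr1, an immediate early transcription factor, had 158, 37, 24, 559 and 125 reads, with UNT_9580 highest and UNT_9576 lowest. Onecut1 and Cish did not pass the test between treatments (log2 fold change -0.60, adjusted p = 0.586, and 0.22, adjusted p = 0.849).

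Ces2b, a carboxylesterase gene, had 140, 3, 1, 83 and 9 reads in the untreated mice and 73 to 90 in the treated mice, with a log2 SD of 2.44 and 0.11. Slc15a2, a peptide transporter gene, had 79, 3, 26, 21 and 105 reads in the untreated mice. Lars2, a mitochondrial leucyl-tRNA synthetase gene, had a log2 SD of 2.65 among untreated mice with Illumina and 0.53 with Ion Torrent.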
